A study of Mus musculus with 18 samples.

Results

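The genes for the subunits and regulators of the VPS34 lipid kinase complexes were followed through meiotic maturation of mouse oocytes with and without VPS34. They are 9 gene symbols (Pik3c3, Pik3r4, Becn1, Atg14, Uvrag, Ambra1, Nrbf2, Sh3glb1 and Vmp1) among the 55291 genes of the count table, taken by symbol, with no threshold on measured values. The cKO groups were oocytes from females homozygous for the floxed Vps34 allele (Vps34 is the protein name behind the gene symbol Pik3c3) and positive for Zp3-Cre. The control groups were homozygous for the same floxed allele without Cre, so that an effect of Cre itself and of the deletion cannot be told apart. Both genotypes were sampled in 5-week-old females as metaphase II (MII) oocytes 14 h after hCG and as germinal vesicle (GV) oocytes 46 h after PMSG. Each of the 4 groups had 3 Smart-seq2 libraries of 5 oocytes each, 12 of the 18 libraries of the series (n = 3 per group throughout). Zp3-Cre is driven by a promoter of growing oocytes, so that the surrounding follicle cells keep the floxed gene intact.

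VPS34 phosphorylates phosphatidylinositol to PI3P, a lipid that marks autophagosome precursors and early endosomes and recruits proteins with FYVE, PX or WIPI domains. Its catalytic subunit (Pik3c3) works with the scaffold kinase VPS15 (Pik3r4) and Beclin 1 (Becn1) in a common core. That core joins either ATG14, which directs complex I to the sites where autophagosomes form, or UVRAG, which directs complex II to endosomes. NRBF2 binds complex I. AMBRA1 binds Beclin 1 and links it to the ULK kinase and to dynein, SH3GLB1 (endophilin B1) binds UVRAG, and VMP1 is a lipid scramblase of the endoplasmic reticulum that also binds Beclin 1. Oocytes halt transcription at the end of growth, and between GV and MII their mRNA is altered by decay and by changes in the poly(A) tail, which affect capture by the oligo(dT) priming of Smart-seq2.

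The 300-base promoter windows of RefSeq (build GRCm38.p6, 250 bases before to 50 after the annotated start) were read for 7 members in 10 windows. None was available for Becn1, and none of Pik3c3 was used. The windows of Atg14 and Nrbf2 are shown because they were the 2 of these 10 windows that held the E-box CACGTG, written in capitals. Those of Pik3r4 and Ambra1 are shown beside them because these mRNAs fell together between GV and MII. Neither holds the motif, and nor do the windows of Sh3glb1, Uvrag and Vmp1. A link between the motif and the changes from GV to MII was not tested. All 4 read 5′ to 3′ on the strand of the gene.
Atg14 (chr14:47568385-47568684, minus strand): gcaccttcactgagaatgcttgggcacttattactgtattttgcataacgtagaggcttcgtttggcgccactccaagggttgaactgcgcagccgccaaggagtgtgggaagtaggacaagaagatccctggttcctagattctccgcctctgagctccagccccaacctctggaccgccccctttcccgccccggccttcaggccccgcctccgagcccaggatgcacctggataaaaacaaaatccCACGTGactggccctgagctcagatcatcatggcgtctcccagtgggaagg
Nrbf2 (chr10:67285232-67285531, minus strand): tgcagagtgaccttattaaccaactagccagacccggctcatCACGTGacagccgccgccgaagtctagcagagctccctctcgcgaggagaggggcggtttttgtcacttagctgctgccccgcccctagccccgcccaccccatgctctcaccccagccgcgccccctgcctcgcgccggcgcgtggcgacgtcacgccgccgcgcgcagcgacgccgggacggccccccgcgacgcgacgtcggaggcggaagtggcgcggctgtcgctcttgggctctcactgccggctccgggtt
Pik3r4 (chr9:105642745-105643044, plus strand): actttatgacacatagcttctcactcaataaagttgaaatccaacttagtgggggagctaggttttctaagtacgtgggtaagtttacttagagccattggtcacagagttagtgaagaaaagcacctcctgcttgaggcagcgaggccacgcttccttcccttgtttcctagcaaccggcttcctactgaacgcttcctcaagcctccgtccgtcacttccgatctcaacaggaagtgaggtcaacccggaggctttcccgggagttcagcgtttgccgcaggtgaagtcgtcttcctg
Ambra1 (chr2:91729888-91730187, plus strand): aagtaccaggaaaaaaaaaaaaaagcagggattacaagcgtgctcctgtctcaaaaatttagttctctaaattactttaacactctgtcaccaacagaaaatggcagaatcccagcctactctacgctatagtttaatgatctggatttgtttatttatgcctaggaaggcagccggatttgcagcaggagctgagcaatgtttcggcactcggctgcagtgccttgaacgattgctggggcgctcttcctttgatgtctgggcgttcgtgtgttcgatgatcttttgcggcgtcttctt
The motif reads the same on both strands, and 7.15% of 32841 windows of this length hold it. In the Nrbf2 window it lies within TCACGTGA, the core of the element bound by TFEB-type factors, which 0.974% of windows hold; the Atg14 window lacks the longer form. The 10 member windows held between 1 (an internal start of Vmp1) and 50 (Sh3glb1) CpG dinucleotides, against a median of 7 over the 32841 windows. The RefSeq start of Atg14 used here lies inside the gene as GENCODE M21 draws it. These matches describe the letters of the windows and say nothing of binding.

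The libraries held 2609783 to 4696626 gene counts, and levels are given as counts scaled to 1000000 gene counts per library (CPM). All 14 oocyte markers had counts, with a summed level of 13823 to 19057 CPM in MII and 33419 to 49875 CPM in GV libraries. Summed cumulus and granulosa cell markers, all 20 with counts in at least 1 library, came to 939 to 1785 CPM in MII and 349.9 to 603 CPM in GV libraries. Without Serpine2, which made up most of that sum, the other markers summed to 142 to 685 CPM in MII and 80.2 to 128 CPM in GV libraries, where Tnfaip6, Ptx3 and Cd44 were at 0. Of 6 blood and immune markers, Hbb-bs and Hbb-bt were at 0 in every library, and the sum, mostly C1qb, was 3.33 to 7.60 CPM in MII and 47.3 to 78.6 CPM in GV libraries. Gene counts per ERCC spike-in count were 1.51 to 2.42 in MII and 4.35 to 13.1 in GV libraries. An annotated ribosomal RNA gene model took 1.24% to 2.55% of gene counts in MII libraries, and 1.17% to 11.1% in GV libraries, where both extremes were cKO. No label ties libraries to animals, and p-values measure the spread between these libraries.

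In GV oocytes Pik3c3 (chromosome 18, 30272747 to 30348126, GRCm38) was the member that fell in cKO, and none of the other 7 with counts was called. Its level was 1.56, 1.65 and 2.67 CPM in cKO, from 5, 6 and 8 reads, and 35.5, 28.8 and 25.8 CPM in control libraries, from 105, 109 and 121 reads. The groups were far apart (log2 fold change -3.97, SE 0.32, 15.7-fold lower, adjusted p = 1.5e-04; edgeR's quasi-likelihood test, p-values adjusted by Benjamini-Hochberg over all genes). Of 10911 genes tested 0.0825% were called (0.0183% higher, 0.0642% lower), and the groups of 7.26% did not overlap in CPM. Counts cover the whole gene, including exons outside the deleted part, so a remaining read need not come from an intact transcript.

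None of the partners of the catalytic subunit was called at GV. Pik3r4, the scaffold of both complexes (chromosome 9, 105642978 to 105687657), stood at 170.5, 144 and 116 CPM in cKO and 121, 141 and 154 CPM in control libraries (log2 0.01, SE 0.21). Becn1 (chromosome 11, 101285952 to 101302286) stood at 19.9, 20.4 and 51.7 CPM in cKO and 31.8, 21.9 and 31.1 CPM in control libraries (log2 0.05, SE 0.33). The cKO values of both spanned the control values. Uvrag, the subunit of complex II (chromosome 7, 98885021 to 99141141), was even among the cKO libraries, at 147, 145 and 146 CPM in cKO and 149.8, 123 and 140.1 CPM in control libraries (log2 0.04, SE 0.17). Atg14, the subunit of complex I (chromosome 14, 47540893 to 47570649), stood at 62.2, 53.2 and 66.3 CPM in cKO and 58.8, 51.7 and 65.8 CPM in control libraries (log2 -0.01, SE 0.19). For Pik3r4, Becn1, Uvrag and Atg14 the adjusted p was 1.

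The regulators gave no call at GV either, but 2 of them spread widely among the cKO libraries. Ambra1 (chromosome 2, 91730134 to 91918849) had 54.1, 37.7 and 20.3 CPM in cKO libraries 1 to 3, and 35.5, 35.1 and 31.9 CPM in control libraries (log2 0.10, SE 0.31). Vmp1 (chromosome 11, 86583865 to 86683836) had 35.8, 55.9 and 109.6 CPM in cKO libraries 1 to 3, and 78.1, 56.7 and 75.6 CPM in control libraries (log2 -0.13, SE 0.31). The coefficient of variation was 45.2% for Ambra1 and 56.9% for Vmp1 in cKO, against 5.71% and 16.7% in control libraries. Becn1 spread likewise in cKO, by 59.4% against 19.5% in control. The ribosomal RNA model took 11.1%, 4.45% and 1.17% of counts in the same cKO libraries 1 to 3, so Becn1 and Vmp1 were highest and Ambra1 lowest in the library with the lowest share, and the part of that share in these spreads was not tested. Sh3glb1 (chromosome 3, 144683678 to 144720335) stood at 35.5, 33.3 and 24.99 CPM in cKO and 26.04, 26.4 and 20.7 CPM in control libraries, with overlapping groups (log2 0.32, SE 0.24, adjusted p = 1).

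Nrbf2, the complex I subunit (chromosome 10, 67266689 to 67285305), was listed at 0 in all 12 libraries. A limit of 3 counts corresponds to 0.639 to 1.15 CPM in these libraries, for counting error alone. GENCODE M21 places no other gene over Nrbf2, but the sources used here do not give the annotation and counting rules behind the table. Whether the 0 stems from the RNA or from the counting was not tested, and Nrbf2 entered no comparison.

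**Figure D1:**
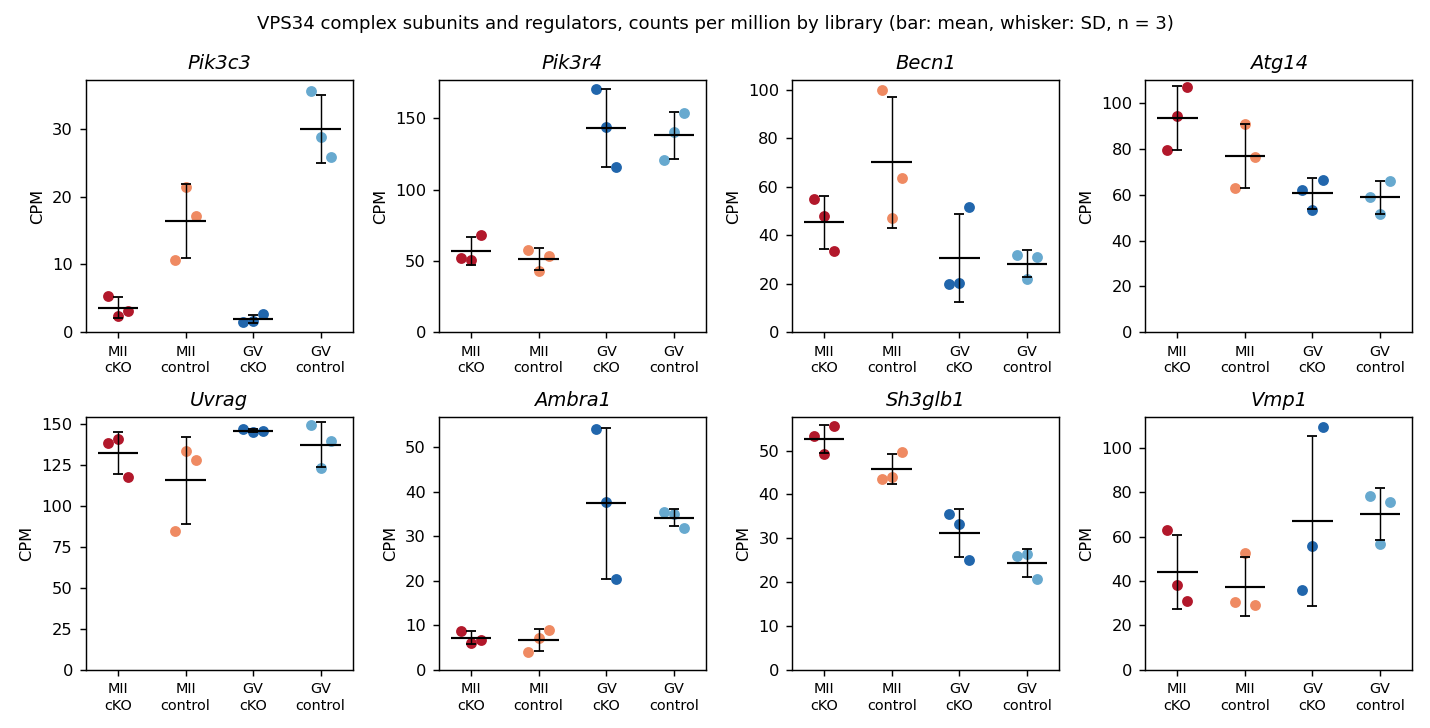
CPM (vertical axes, from 0) of the 8 members with counts in each library of the 4 groups; points are libraries, bars means and whiskers SD (n = 3). Pik3c3 lies at 1.56 to 5.36 CPM in the 6 cKO libraries and at 10.6 to 35.5 CPM in the 6 control libraries, while Ambra1 and Pik3r4 are lower and Sh3glb1 higher at MII than at GV in both genotypes.

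In MII oocytes edgeR called no member, and Pik3c3 was again the only one whose genotypes did not overlap. It stood at 5.36, 2.42 and 3.21 CPM in cKO, from 14, 8 and 9 reads, and 10.6, 21.4 and 17.1 CPM in control libraries, from 39, 71 and 63 reads. The difference was 4.57-fold (log2 -2.19, SE 0.39), with an unadjusted p of 1.5e-04 and an adjusted p = 0.530 (edgeR). DESeq2 gave -2.19 with an adjusted p = 0.0142, and edgeR without a filter on low counts gave an adjusted p = 1.5e-04. That unfiltered run called 96 of 22572 genes. With all 12 libraries in 1 fit, edgeR did not call Pik3c3 (log2 -2.20, adjusted p = 0.0542). Over all 9677 genes tested 0.0% were called by edgeR, 9.01% had an unadjusted p under 0.05 (872 genes), DESeq2 called 4 genes, and 15.8% did not overlap in CPM. cKO library 1, with the highest Pik3c3 level of the cKO MII libraries, also had the most cumulus and granulosa marker RNA of all libraries, 685 CPM without Serpine2 against 216 and 142 CPM in cKO libraries 2 and 3; the part of these cells in its Pik3c3 count was not tested.

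Becn1 was the other member with an unadjusted p under 0.05 at MII. It stood at 54.8, 47.8 and 33.5 CPM in cKO and 99.8, 47.1 and 63.5 CPM in control libraries (log2 -0.69, SE 0.30, unadjusted p = 0.0437, adjusted p = 0.548, edgeR). The groups overlapped, since control library 2 lay below cKO libraries 1 and 2. Without control library 1, the highest, the difference was -0.28 (adjusted p = 0.858), and without control library 2 it was -0.94 (adjusted p = 0.215).

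The remaining members gave no call at MII, and none had an adjusted p under 0.662 (edgeR). Atg14 had 79.3, 94.1 and 107 CPM in cKO and 62.98, 90.9 and 76.6 CPM in control libraries (log2 0.26, SE 0.19). Uvrag had 139, 141 and 118 CPM in cKO and 85.1, 134 and 128 CPM in control libraries (log2 0.17, SE 0.18). Pik3r4 had 52.5, 50.6 and 68.4 CPM in cKO and 57.8, 42.9 and 53.5 CPM in control libraries (log2 0.11, SE 0.22). For these 3 genes the groups overlapped. Ambra1 was low in both genotypes, at 8.81, 6.05 and 6.77 CPM in cKO and 4.09, 7.24 and 8.96 CPM in control libraries (log2 0.06, SE 0.38). Sh3glb1 had 53.3, 49.3 and 55.6 CPM in cKO and 43.6, 44.1 and 49.7 CPM in control libraries (log2 0.17, SE 0.18), with only cKO library 2 below the highest control. Vmp1 had 62.8, 38.1 and 31.01 CPM in cKO and 30.5, 52.8 and 29.1 CPM in control libraries (log2 0.20, SE 0.30), with 1 high library in each group.

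**Figure D2:**
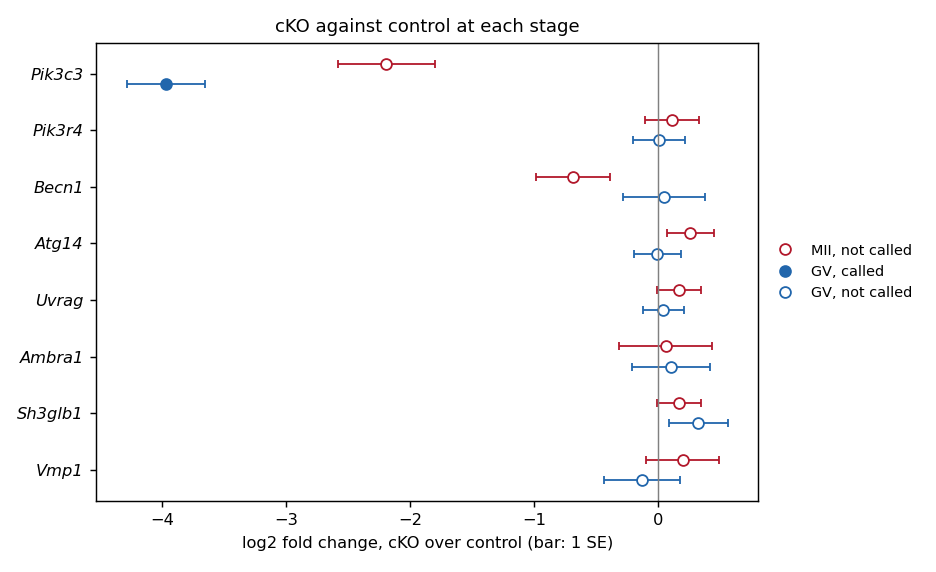
Log2 fold change of cKO over control (horizontal axis; bars 1 SE) for the 8 members with counts, at MII and at GV; filled points passed an adjusted p of 0.05 in edgeR. Pik3c3 lies at -2.19 at MII and -3.97 at GV, and the other members lie between -0.69 and 0.26 at MII and between -0.13 and 0.32 at GV.

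Between GV and MII the composition of this gene group shifted in both genotypes, relative to the other mRNAs of the libraries. Ambra1 and Pik3r4 fell, Sh3glb1 and Atg14 rose, and Uvrag was not called. edgeR called 5 of 8 tested members in cKO (3 higher, 2 lower) and 7 of 8 in control (3 higher, 4 lower). Over all 11607 genes tested 63.5% were called in cKO (29.5% higher, 34.0% lower) and 63.9% in control (30.1% higher, 33.8% lower), so a call between the stages is not particular to the members. The members' median log2 fold change was 0.36 in cKO and -0.43 in control, against -0.04 and 0.01 over all genes. The opposite signs rest on Pik3c3, the deleted gene, at 1.02 in cKO and -0.74 in control. Without Pik3c3 the middle member was Uvrag in both genotypes, at -0.00 in cKO and -0.12 in control. The CPM of the stages did not overlap for 5 of the 8 in cKO and 6 of the 8 in control, against 65.3% and 67.3% of all genes tested.

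Ambra1, the adaptor that also serves as a ubiquitin ligase receptor, showed the largest change of any member between the stages. Its mean was 7.21 ± 1.43 CPM (SD) at MII and 37.4 ± 16.9 CPM at GV in cKO, and 6.77 ± 2.47 CPM at MII and 34.2 ± 1.95 CPM at GV in control oocytes. It was 4.79-fold lower at MII in cKO (log2 -2.26, SE 0.36, adjusted p = 2.4e-05) and 4.60-fold lower in control (log2 -2.20, SE 0.35, adjusted p = 2.7e-05, edgeR), and the stages did not overlap in either genotype. Pik3r4, the scaffold kinase, was 2.28-fold lower at MII in cKO (log2 -1.19, SE 0.23, adjusted p = 2.0e-04) and 2.43-fold lower in control (log2 -1.28, SE 0.23, adjusted p = 9.3e-05). All 6 MII libraries, at 42.9 to 68.4 CPM, lay below all 6 GV libraries, at 116 to 170.5 CPM.

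Sh3glb1, the UVRAG partner that bends membranes, rose 1.85-fold in cKO (log2 0.89, SE 0.22, adjusted p = 0.00166) and 2.07-fold in control (log2 1.05, SE 0.22, adjusted p = 3.9e-04, edgeR). Its lowest MII library, at 43.6 CPM, lay above its highest GV library, at 35.5 CPM. Becn1 rose 2.80-fold in control (log2 1.48, SE 0.34, adjusted p = 9.7e-04), with no overlap between the stages. In cKO Becn1 averaged 45.4 ± 10.9 CPM at MII and 30.7 ± 18.2 CPM at GV and was not called (log2 0.73, SE 0.34, adjusted p = 0.0725). It was called in cKO without GV cKO library 3, its highest GV library (log2 1.26, adjusted p = 0.00219), or without MII control library 1 (adjusted p = 0.0415), and its log2 value over the 12 omissions lay between 0.50 and 1.26. Cumulus and granulosa marker RNA was also higher at MII than at GV, as given above, and its part in these rises was not tested.

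The subunits that set complex I apart from complex II took different courses. Atg14 rose 1.71-fold in cKO (log2 0.77, SE 0.20, adjusted p = 0.00238), where its stages did not overlap, and 1.43-fold in control (log2 0.52, SE 0.20, adjusted p = 0.0290), where they did. Without GV control library 1 or 2, or MII control library 2 or 3, the control call was lost (adjusted p = 0.0568 to 0.101). Uvrag was not called in either genotype, at log2 -0.00 (SE 0.17) in cKO and -0.12 (SE 0.17) in control, although its CPM in cKO were lower in every MII library (118 to 141) than in every GV library (145 to 147). Vmp1 was lower at MII in control (log2 -0.77, SE 0.32, adjusted p = 0.0435) and not called in cKO (log2 -0.45, SE 0.32, adjusted p = 0.227), where it was called without GV cKO library 1 (log2 -0.74, adjusted p = 0.0415). The control call of Vmp1 was lost without GV control library 1 or 3, MII cKO library 2, or MII control library 1 or 3 (adjusted p = 0.0514 to 0.162).

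Pik3c3 itself fell 1.67-fold from GV to MII in control oocytes (log2 -0.74, SE 0.29, adjusted p = 0.0307, edgeR), with no overlap between the stages. That call was lost without GV control library 1 or 2, or MII control library 1 or 3 (adjusted p = 0.0670 to 0.124). In cKO oocytes it passed in the other direction by a narrow margin (log2 1.02, SE 0.44, adjusted p = 0.0496), from 14, 8 and 9 reads at MII and 5, 6 and 8 reads at GV, with CPM that overlapped. Leaving out any of 8 of the 12 libraries ended the cKO call (adjusted p = 0.0554 to 0.241): GV cKO 1 or 2, GV control 1, 2 or 3, MII cKO 1 or 3, or MII control 3. DESeq2 gave an adjusted p = 0.0660.

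**Figure D3:**
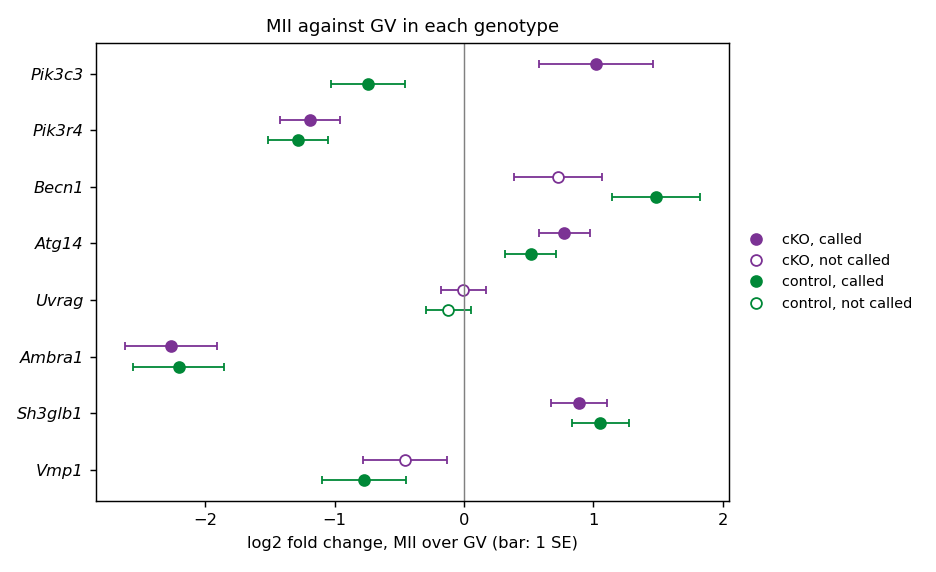
Log2 fold change of MII over GV (horizontal axis; bars 1 SE) in cKO and in control oocytes, on the scale relative to all mRNA; filled points passed an adjusted p of 0.05 in edgeR. Ambra1 lies at -2.26 and -2.20 and Pik3r4 at -1.19 and -1.28 in cKO and control, while Pik3c3 lies at 1.02 in cKO and -0.74 in control.

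Whether the change from GV to MII differed between genotypes was tested directly, as an interaction in the fit of all 12 libraries. No member passed, with 0.00862% of 11607 genes called. The largest differences were those of Pik3c3 (log2 1.76, SE 0.53, unadjusted p = 0.00333, adjusted p = 0.875, edgeR) and Becn1 (log2 -0.76, SE 0.48, adjusted p = 0.875). Without GV cKO library 3 that of Becn1 was -0.22, and over the omissions of 1 library it lay between -1.01 and -0.22. For Pik3r4, Atg14, Uvrag, Ambra1, Sh3glb1 and Vmp1 the difference lay between -0.17 and 0.32. The 1 member with an unadjusted p under 0.05 was Pik3c3, against 5.24% of all genes.

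Scaled to the ERCC spike-in RNA instead of to all mRNA, every member with counts was lower at MII than at GV in both genotypes, and so was the median gene. The median log2 fold change of all genes on this scale was -2.37 in cKO and -1.72 in control. Of all genes 93 were called higher and 10209 lower in cKO, against 3422 and 3949 on the scale of all mRNA, and 65 higher and 8141 lower in control, against 3490 and 3928. Relative to that median, Ambra1 stood at -2.37 in cKO and -2.17 in control, and Pik3r4 at -1.27 and -1.36. On the same relative scale Becn1 stood at 0.91 and 1.39, Sh3glb1 at 0.85 and 1.06, and Atg14 at 0.76 and 0.50 in cKO and control. Vmp1 stood at -0.24 and -0.77, Uvrag at 0.02 and -0.10, and Pik3c3 at 1.17 and -0.67. Atg14, which rose as a part of the mRNA, per spike-in count fell by 1.61 in cKO and by 1.22 in control on the log2 scale. Becn1 (-0.33, SE 0.44, adjusted p = 0.496) and Sh3glb1 (-0.66, SE 0.44, adjusted p = 0.171) were the 2 members not called in control on the spike-in scale, and Pik3c3 (-1.20, SE 0.63, adjusted p = 0.0628) the 1 not called in cKO. Less mRNA per oocyte and poorer capture of it cannot be told apart in these counts.

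**Figure D4:**
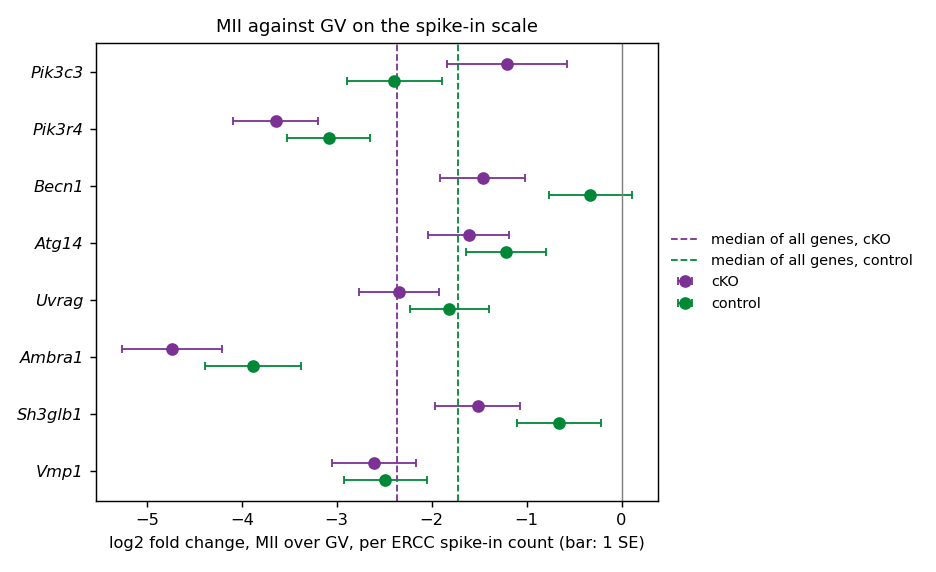
Log2 fold change of MII over GV per ERCC spike-in count (horizontal axis; bars 1 SE) in cKO and control oocytes; dashed lines mark the median of all genes, -2.37 in cKO and -1.72 in control. Ambra1, Pik3r4 and Vmp1 lie left of both medians and Becn1, Sh3glb1 and Atg14 right of them, with all members below 0.

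Ratios between members within a library do not depend on how libraries are scaled. The ratio of Atg14 to Uvrag counts per kilobase of exon, a mark of complex I against complex II mRNA, was 1.195, 1.395 and 1.900 in cKO and 1.55, 1.42 and 1.25 in control MII libraries. At GV it was 0.882, 0.766 and 0.9498 in cKO and 0.821, 0.877 and 0.982 in control libraries. Every MII library thus had more Atg14 than Uvrag per kilobase and every GV library less, in both genotypes. The side of 1 depends on the exon lengths used, 4.322 kb for Atg14 and 9.035 kb for Uvrag. Without that division every library had fewer Atg14 than Uvrag counts, with ratios up to 0.909 (MII cKO library 3). The rise between stages remained, from at most 0.470 at GV (control library 3) to at least 0.572 at MII (cKO library 1). Per kilobase the genotypes overlapped at each stage. Means were 1.497 ± 0.363 (SD) in cKO and 1.40 ± 0.1498 in control at MII, and 0.866 ± 0.0932 in cKO and 0.893 ± 0.0815 in control at GV.

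The ratio of Becn1 to Pik3r4 per kilobase moved further. It averaged 1.13 ± 0.405 in cKO and 1.83 ± 0.464 in control oocytes at MII, against 0.321 ± 0.2502 in cKO and 0.283 ± 0.0738 in control oocytes at GV. The lowest MII library, a cKO one at 0.669, lay above the highest GV library, also cKO, at 0.609. The ratio of Pik3c3 to Pik3r4 was 0.142 ± 0.0685 in cKO and 0.724 ± 0.343 in control oocytes at MII, and 0.0314 ± 0.01605 in cKO and 0.481 ± 0.141 in control oocytes at GV. The cKO libraries lay below the control libraries at both stages. These 3 ratios were computed, and as scores over members they carry no test.

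**Figure D5:**
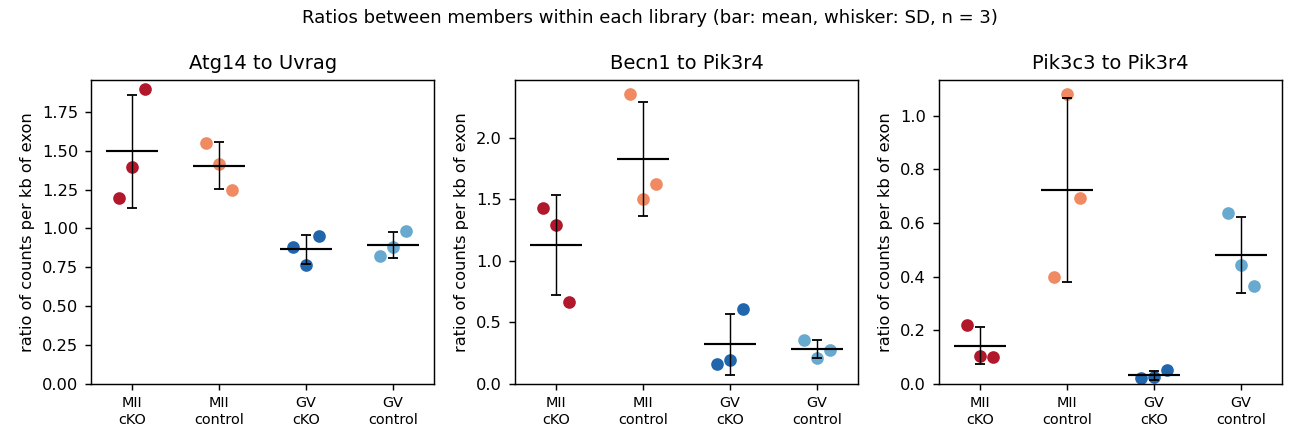
Ratios of counts per kilobase of exon between 3 pairs of members (vertical axes, from 0) in each library of the 4 groups; points are libraries, bars means and whiskers SD (n = 3). The Atg14 to Uvrag ratio per kilobase is above 1 in the 6 MII libraries and below 1 in the 6 GV libraries. The side of 1 depends on the exon lengths used.

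Per kilobase of exon, the order of the members differed between the stages. At MII Atg14 was the highest, with 21.6 ± 3.197 CPM per kilobase (SD) in cKO and 17.8 ± 3.23 in control oocytes, followed by Uvrag with 14.7 ± 1.43 and 12.8 ± 2.96. In cKO these 2 did not overlap, and in control they did. At GV, Vmp1 with 17.4 ± 9.89 CPM per kilobase in cKO and 18.2 ± 3.03 in control was followed by Uvrag, Pik3r4 and Atg14, with 14.01 to 16.2 in cKO and 13.6 to 15.2 in control. Neighbours among these 4 overlapped in both genotypes. A gap without overlap then separated Atg14 from Ambra1, at 6.11 ± 2.76 CPM per kilobase, in cKO, and from Pik3c3, at 6.72 ± 1.12, in control.

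Pik3c3 was the lowest member with counts in cKO, with 0.821 ± 0.341 CPM per kilobase at MII, where it overlapped with Ambra1 (1.18 ± 0.234), and 0.438 ± 0.138 at GV. In control MII oocytes the lowest was Ambra1, with 1.11 ± 0.404 CPM per kilobase, below Pik3c3 with 3.67 ± 1.22 and without overlap. In control GV oocytes it was Sh3glb1, with 3.26 ± 0.431 CPM per kilobase, which overlapped with Becn1. Among genes of at least 1 CPM, control Pik3c3 lay at percentile 51.2 at MII and 60.5 at GV, and cKO Pik3c3 at percentile 20.4 and 8.13. Lengths are unions of the exons in GENCODE M21, which matched 96.4% of the symbols in the table, and long rare isoforms lower such a level.

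The other genes that act on or after these complexes showed no call between genotypes at either stage. edgeR called 0.0% of all genes tested at MII and 0.0825% at GV, so the absence of calls is not particular to these lists. Of 38 listed partners and modifiers of Beclin 1 and VPS34, 32 were tested at MII and 33 at GV; of 5 genes of the ULK initiation kinase, 4 and 5; and of 20 readers of PI3P, 16 and 17. Their median log2 fold changes at MII were 0.05, -0.11 and 0.13, against 0.02 over all genes. At GV they were 0.10, 0.19 and 0.13, against 0.01 over all genes.

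Between GV and MII, 7 partners and modifiers rose and 7 fell of 33 tested in cKO, and 6 rose and 8 fell in control, against the 63.5% and 63.9% of all genes called. The 4 largest changes of this list were the same genes in both genotypes, all falls. Dynll1, the dynein light chain that AMBRA1 binds, had 33.9 ± 6.24 CPM at MII and 375 ± 61.1 CPM at GV in cKO (log2 -3.33, SE 0.23, adjusted p = 1.1e-09). In control it had 30.5 ± 9.06 CPM at MII and 483 ± 92.2 CPM at GV (log2 -3.86). Prkaa1, a catalytic subunit of AMP-activated kinase, was at log2 -2.88 in cKO and -2.61 in control. Rubcnl, which binds UVRAG, was at -2.77 and -2.91, and Bcl2l1, the BCL-XL protein that binds Beclin 1, at -2.16 and -1.92. Each had an adjusted p of 1.5e-05 or less in both genotypes.

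In the ULK initiation kinase the subunits went opposite ways, with 1 of 5 higher and 2 lower at MII in each genotype, near the 63.5% and 63.9% of all genes called in cKO and control. Rb1cc1, the scaffold FIP200, had 286 ± 53.7 CPM at MII and 135 ± 8.56 CPM at GV in cKO (log2 1.23, SE 0.19, adjusted p = 1.5e-05). In control it had 278 ± 4.09 CPM at MII and 113 ± 10.98 CPM at GV (log2 1.44, adjusted p = 2.7e-06). The HORMA-domain subunits Atg101 (log2 -3.28 in cKO and -2.71 in control) and Atg13 (-1.82 and -3.27) both fell. Of 17 PI3P readers 6 rose and 5 fell in each genotype, again near those shares of all genes. The largest changes were those of Wipi2, which recruits the ATG16L1 complex (-3.01 in cKO and -2.44 in control), and of Hgs, the ESCRT subunit with a FYVE domain (-2.27 and -2.66).

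Genes whose levels followed Pik3c3 over the 12 libraries were ranked by Pearson's r of log2(CPM + 1) among 9306 genes with a mean of at least 5 CPM. The 5 most alike were Rps3a3 (r = 0.891), Gm11846 (0.875), Gm15361 (0.865), Gm4349 (0.832) and Gm47027 (0.808). Rps3a3 and Gm15361 are annotated as processed pseudogenes, Gm11846 and Gm4349 as long intergenic noncoding RNAs and Gm47027 as an antisense RNA. Reads of pseudogenes and antisense RNAs may belong to other genes. No member was among them: the highest was Vmp1 at 0.185 and the lowest Sh3glb1 at -0.341. The 12 points fall into 4 groups that share stage and genotype, so these values only describe the pattern.

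Annotated neighbours that share exon bases with members had few or no counts of their own. Cntd1, on the strand opposite to Becn1, had 36 counts over the 12 libraries against 1767 for Becn1. The antisense genes in exons of Atg14 and Uvrag and the microRNA gene Mir21a in Vmp1 were at 0. Gm11478, a processed pseudogene within Vmp1 whose exon lies outside those of Vmp1, had 105 counts. The sources used here do not give the strand setting of the counting, so reads of such pairs cannot be assigned with certainty.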

How the data were processed

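Raw read counts by gene symbol were deposited by the authors as whole numbers. Per the submitters' processing notes, fastp, HISAT2 and featureCounts were used with build mm10, without versions given. Libraries were Smart-seq2 with ERCC spike-ins, per the labels' protocols. Columns were matched by name (age, stage, letter, replicate), with C read as control and T as cKO; Pik3c3 counts had been seen when this was written, so they are no independent check. Another 6 columns matched no label and were not used. The 92 spike-ins stayed out of library sizes.

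The test was that of edgeR 4.0.16, run in R 4.3.3 (TMM, filterByExpr, robust quasi-likelihood, Benjamini-Hochberg over all genes tested, threshold 0.05), by stage for genotype and over 12 libraries for maturation and interaction; "called" means passing. SE is the fold change over the root of F. The code was tested on simulated data. Alternatives included DESeq2 1.42.0. CPM use gene totals, without TMM factors, so CPM and fitted changes can differ slightly. Named are all members, up to 4 called genes per list and the 5 genes most like Pik3c3. Members and lists were chosen with earlier results of these data known. Libraries of a group differed beyond sampling noise (chi-square per degree of freedom at least 4.87). Groups of 3 limit precision, and an exact test of 3 against 3 could not go below p = 0.1. Counting limits use 3 counts, without molecular identifiers.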

Additional observations from a re-analysis of the deposited data

How the results depend on the processing

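Of the values with all 12 libraries, the count of members called was within 1.5 times in every alternative but 2, both at MII between genotypes, where DESeq2 and edgeR without a filter on low counts each called 1 member (Pik3c3) against 0. Leaving out 1 library gave 1 member at GV and 0 at MII between genotypes, 4 to 6 from GV to MII in cKO, 4 to 7 in control (4 without GV control 1 or MII control 3) and 0 in the interaction. Over all genes, calls at GV were 28 without a filter and 3 with all 12 libraries in 1 fit, against 9. At MII they were 4 with DESeq2 and 96 without a filter, against 0. In the interaction they were 5 with DESeq2, 3 with ERCC totals, 18 without a filter and 2 without robust fitting, against 1. Leaving out 1 library gave 2 to 10 calls at GV and 0 to 3 in the interaction. With ERCC totals the GV calls were 6 higher and 5 lower, against 2 and 7. ERCC totals, which moved the median of all genes by 0.46 at GV, -0.15 at MII and -0.61 in the interaction, turned the sign of uncalled genotype differences: at GV Atg14 to 0.45 and Vmp1 to 0.18; at MII Ambra1 to -0.15, Pik3r4 to -0.0611, Sh3glb1 to -0.0083 and Uvrag to -0.0117. They turned the interaction of Atg14 to -0.39, Pik3r4 to -0.56, Uvrag to -0.53 and Vmp1 to -0.12. From GV to MII they turned Atg14 to -1.61, Becn1 to -1.46, Pik3c3 to -1.20 and Sh3glb1 to -1.52 in cKO, and Atg14 to -1.22, Becn1 to -0.33 and Sh3glb1 to -0.66 in control. Without a filter Pik3r4 at GV was -0.0013, and from GV to MII the calls of Atg14 in control (adjusted p = 0.207) and Pik3c3 in cKO (0.150) were lost and that of Becn1 in cKO gained (0.0425). RLE size factors also lost the Pik3c3 call in cKO (0.0507). With the 6 cKO libraries alone Uvrag was 0.0063, and Pik3c3 had too few counts to be tested.

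Replicate numbers gave no sign of pairing: correlations of same-numbered deviations ran from -0.296 to 0.278. In 1 of 12 checks, by comparison and replicate number, a library correlated best with its own number in the other group. With the replicate block, uncalled GV differences turned to -0.0102 for Ambra1, -0.0389 for Becn1 and -0.0070 for Pik3r4; from GV to MII the call of Pik3c3 in cKO (adjusted p = 0.0674) and of Vmp1 in control (0.0630) was lost and that of Becn1 in cKO gained (0.0494). No other call on a member changed under the block.

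Leaving out 1 library turned the sign of small values. At GV between genotypes the ranges were -0.30 to 0.42 for Ambra1, -0.0672 to 0.0857 for Atg14, -0.50 to 0.27 for Becn1, -0.17 to 0.17 for Pik3r4, -0.0021 to 0.0786 for Uvrag and -0.62 to 0.14 for Vmp1. At MII they were -0.16 to 0.31 for Ambra1, -0.0684 to 0.27 for Pik3r4 and -0.13 to 0.48 for Vmp1. From GV to MII they were -0.0472 to 0.0410 for Uvrag and -0.76 to 0.0290 for Vmp1 in cKO, and -0.19 to 0.0166 for Uvrag in control. In the interaction they were -0.38 to 0.34 for Ambra1, -0.10 to 0.27 for Pik3r4 and -0.0221 to 0.19 for Uvrag. The log2 Atg14 to Uvrag ratio moved by less than 1 SD when taken from summed counts. The cause of these changes was not tested. Pik3c3 rested on 5 to 14 reads a library in cKO, which limits how finely its change there can be read.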
